A study of Mus musculus with 28 samples.

Results

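The 40 genes described here encode the integrin subunits and the proteins of the focal adhesion, the structure that joins integrins to the actin cytoskeleton. They were taken by symbol from a list whose rule uses no measured value, although the list was chosen with earlier results of these data known. All 40 were found among the 25719 genes counted in the series. By role they comprised 22 integrin subunits, 1 integrin-like gene (Itgbl1) and 17 genes of the adhesion plaque. The list also named a contrast between 4 collagen-binding alpha subunits (Itga1, Itga2, Itga10 and Itga11) and 4 leukocyte subunits (Itgam, Itgax, Itgal and Itgb2).

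Expression was measured by bulk RNA-seq of tail tendon fascicles, homogenised whole, in 28 libraries from mice on the C57BL/6 background. Fosl-2(Tg) mice, a spontaneous model of systemic sclerosis, carried a randomly inserted vector with murine Fosl2 and an eGFP marker under the H2Kb promoter, an MHC class I promoter that is not restricted to tendon cells. Animals of these crosses that lacked the transgene served as WT. The early cohort held 7 WT and 8 Fosl-2(Tg) mice aged 6 to 8 weeks, all male. The established cohort held 6 WT and 7 Fosl-2(Tg) mice older than 14 weeks, of which 1 WT and 1 Fosl-2(Tg) mouse were male and the other 11 female, so that stage and sex cannot be told apart.

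Integrins are heterodimers of an alpha and a beta chain that bind the extracellular matrix or other cells outside the cell and talin and kindlin inside it. In tendon, whose matrix is dominated by type I collagen, the alpha chains 1, 2, 10 and 11 pair with the beta 1 chain to bind collagens, whereas the beta 2 chain pairs with the alpha chains L, M and X on leukocytes and mediates their adhesion. Talins and kindlins activate integrins, the complex of integrin-linked kinase with PINCH and parvin steadies the plaque, focal adhesion kinase and p130Cas relay signals of tension, and vinculin, zyxin, the alpha-actinins and tensins link the plaque to actin.

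Total counts ran from 9645598 to 66894396 per library. Fosl2 itself was not called in either cohort. Levels are given in CPM, counts per 1e6 reads of a library size scaled by TMM, edgeR's normalization between libraries. Fosl2 stood at 63.4 to 156 CPM in the early Fosl-2(Tg) mice against 58.8 to 136 CPM in their WT controls. In the established mice it stood at 121 to 160 against 78.1 to 169 CPM. Its log2 fold change was 0.20 (FDR 0.918) in early and 0.38 (FDR 0.142) in established mice, where FDR is the p-value of edgeR's quasi-likelihood test after Benjamini-Hochberg adjustment over all genes. The inserted Fosl2 is the murine gene with truncated untranslated regions, so these counts do not separate transgene reads from endogenous ones. Expression of the transgene itself was not tested. The 10 tendon markers were present in every library. At the established stage all 10 had a log2 fold change below 0 (49.3% of all genes), and 5 were called (6.51% of all genes): Scx, Tnmd, Col1a1, Col1a2 and Chad. The 10 markers then summed to 3600 to 76750 CPM in Fosl-2(Tg) and 94250 to 188500 CPM in WT mice. The part of this difference in the values of the members was not tested. The summed level of 12 skeletal muscle markers ranged from 54.9 to 21720 CPM and was highest in established WT mice 5 and 6. At the established stage all 12 had a log2 fold change below 0 (49.3% of all genes). Of them edgeR called 0 (6.51% of all genes), and 2 had an unadjusted p under 0.05 (26.6% of all genes). Since RNA came from whole tissue, fewer cells of a type and less RNA per cell cannot be told apart.

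Expressed per kilobase of exon, so that genes of different length can be compared, the members spanned a wide range. Itgb1, the beta chain shared by the collagen-, laminin- and fibronectin-binding integrins, had the highest level in each of the 4 groups, at 100.4 ± 20.3 (SD, n = 7) CPM per kilobase in early WT mice and 72.6 ± 11.6 (SD, n = 6) in established WT mice. It was followed in established WT mice by Tns3 at 56.2 ± 10.9 (SD, n = 6) and Tns1 at 49.0 ± 4.55 (SD, n = 6) CPM per kilobase, both tensins, whose levels differed by less than their spread. Itgbl1, which encodes a secreted protein with integrin-like repeats and no membrane anchor, reached 47.6 ± 7.78 (SD, n = 6) CPM per kilobase, and Tln1, the main talin of non-muscle cells, 39.8 ± 2.41 (SD, n = 6). Among collagen-binding alpha chains of established WT mice, Itga10 stood at 20.45 ± 6.37 (SD, n = 6) and Itga2 at 17.9 ± 3.01 (SD, n = 6) CPM per kilobase, a difference smaller than the spread, ahead of Itga11 at 11.8 ± 3.87 and Itga1 at 5.67 ± 0.709 (SD, n = 6). Itgal and Itgax were lowest, with means of 0.0121 to 0.0540 CPM per kilobase in the WT groups.

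**Figure D1:**
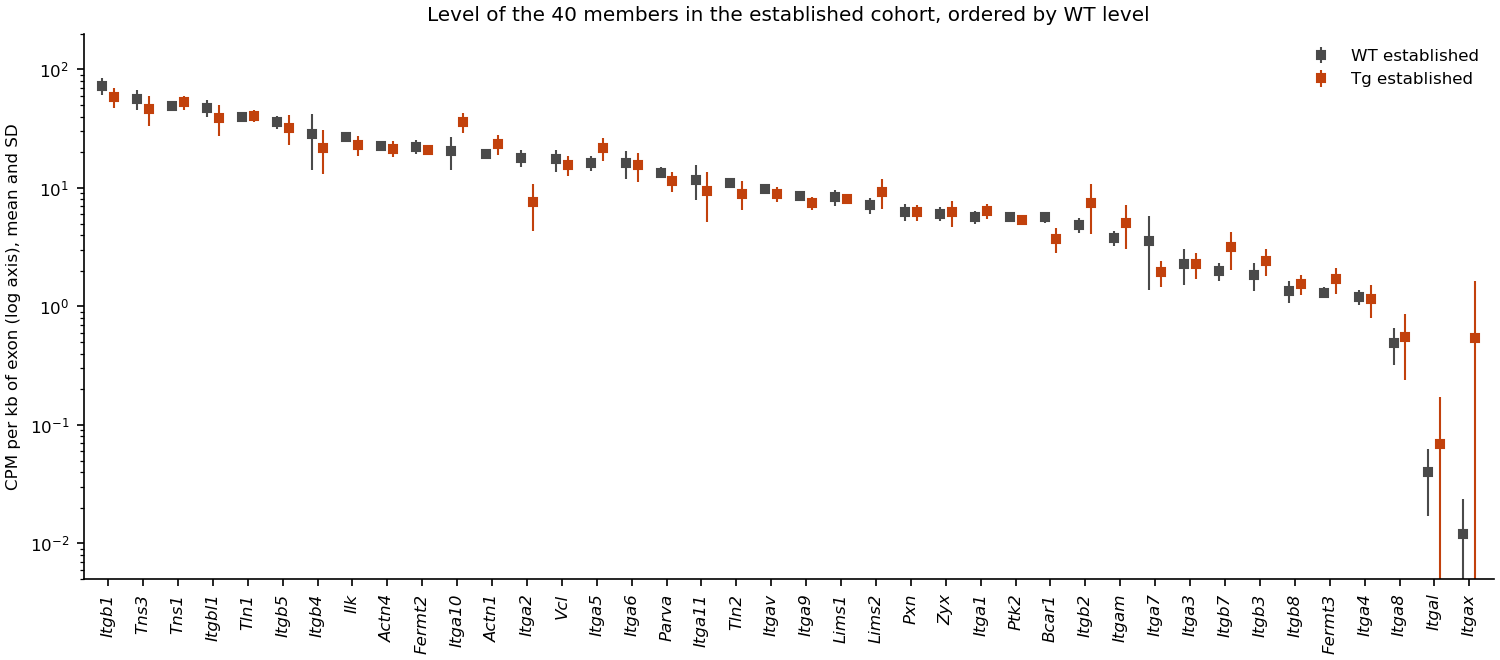
Mean level of each of the 40 genes in CPM per kilobase of exon (log axis) in the 6 WT (grey) and 7 Fosl-2(Tg) (red) mice of the established cohort, ordered by the WT mean; bars are SD, and lower bars of Itgal and Itgax that fall under the axis are cut. The mean of Itga2 is 17.9 in WT and 7.57 in Fosl-2(Tg) mice, and that of Itga10 20.45 and 35.65 CPM per kilobase; Itgb1 is highest in both.

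In the early cohort no member differed between genotypes at an FDR of at most 0.05, where 6 of 15138 genes (0.0396%) did. Of the 40 members 38 passed the filter on low counts; Itgax and Itgal did not and were not tested. DESeq2 on the same genes also called 0 members. At an unadjusted p under 0.05, reached by 6.06% of all genes, Itga2 was on the higher side and Itga6, Itgam, Itgb3, Itgb4 and Fermt3 on the lower. No early member separated the groups without overlap, as did 0.0528% of all genes. Of the 38 members 23 had a log2 fold change below 0 (52.7% of all genes), and their median was -0.02, beside -0.01 over all genes tested.

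At the established stage 3 of the 38 tested members were called, which is 7.89% of them beside 6.51% of the 15862 genes tested. Itga2 and Bcar1 fell (3.37% of all genes fell) and Itga10 rose (3.14% of all genes rose) in Fosl-2(Tg) tendon. The median log2 fold change over the members was -0.04, beside 0.01 over all genes, and the members ran from -1.24 to 0.81, with 23 of 38 below 0 (49.3% of all genes). An unadjusted p under 0.05 was reached by 12 of the 38 members, beside 26.6% of all genes. They were the 3 called genes together with Itga5, Itgb2, Itgb3, Itgb7, Fermt3, Lims2 and Actn1 on the higher side and Itga7 and Itgb1 on the lower, and these 9 had FDR values between 0.0872 and 0.182. Only Itga2 remained called when Fosl-2(Tg) mouse 1 or 2 or WT mouse 2, 4 or 5 was left out, and 5 members (Itga5 and Itgb7 in addition) were called without Fosl-2(Tg) mouse 6.

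The effects of genotype at both stages were then set against each other by an interaction term fitted to all 28 libraries. It was called for 3 of 38 members (7.89%, beside 7.43% of 16082 genes), Itga2, Bcar1 and Fermt3, and 13 had an unadjusted p under 0.05 (25.3% of all genes). With the replicate number as a block 5 members were called, Itga10 and Itgb2 in addition. The count was 1 (Itga2) without early WT mouse 1, 2 or 3, early Fosl-2(Tg) mouse 5 or 6 or established WT mouse 1, 4 or 5, 6 without early Fosl-2(Tg) mouse 1, and 7 without early WT mouse 4 or 5.

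**Figure D2:**
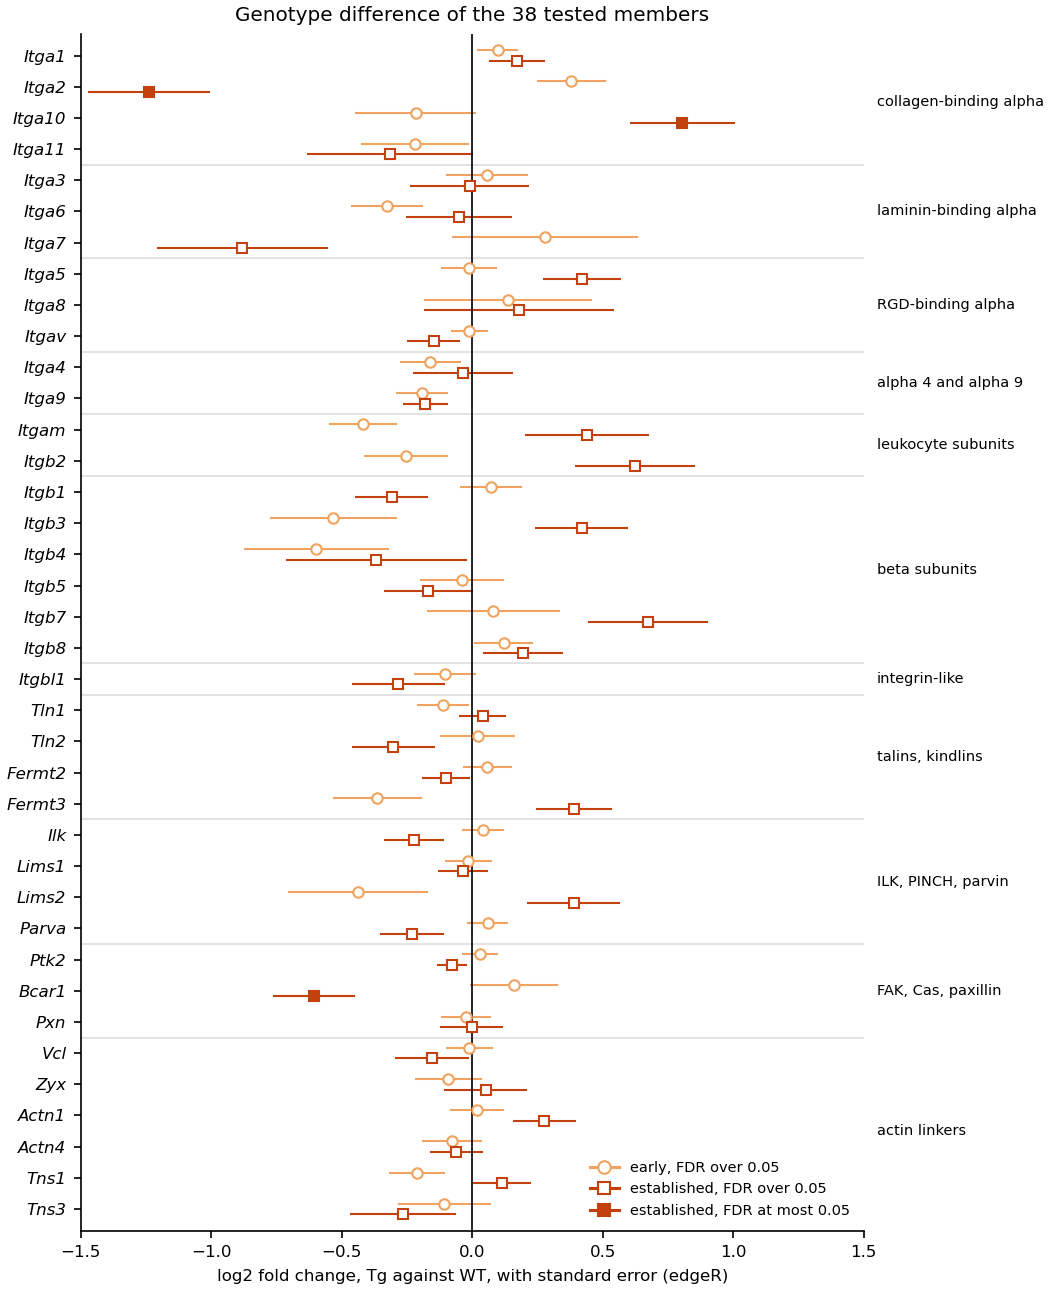
Log2 fold change of Fosl-2(Tg) against WT with its standard error for the 38 tested members, grouped by role, in the early (orange circles) and established (red squares) cohorts; filled symbols passed an FDR of 0.05. The filled squares are Itga2 at -1.24, Itga10 at 0.81 and Bcar1 at -0.61, and no early circle is filled.

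The 2 called alpha chains of the established cohort both belong to the collagen-binding group and moved in opposite directions. Itga2 encodes the collagen receptor chain best known from platelets and epithelia, with a preference for fibrillar collagen, and lies on chromosome 13 (GRCm39, 114969617 to 115068636, minus strand). Its level in the established WT mice was 155, 119, 122, 152, 99.7 and 119 CPM, and in the Fosl-2(Tg) mice 42.3, 51.2, 51.4, 99.7, 25.1, 60.8 and 47.5 CPM. Of the 7 Fosl-2(Tg) mice 6 lay below every WT mouse, and the groups met only where Fosl-2(Tg) mouse 4 reached the lowest WT value. The log2 fold change was -1.24 with a standard error (SE) of 0.23 (FDR 0.01415), and the Fosl-2(Tg) mean was 42.2% of the WT mean. In the younger mice the levels were 128 to 214 CPM (median 156) in WT and 160.2 to 276 CPM (median 190.1) in Fosl-2(Tg) mice, which overlapped, with a log2 fold change of 0.38 (SE 0.13, FDR 0.6575). The effect of genotype was therefore lower at the established than at the early stage by 1.63 on the log2 scale (interaction -1.63, SE 0.27, FDR 0.00198). Without any one of the 13 established libraries Itga2 stayed called, at an FDR of at most 0.0370.

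Itga10, whose product is best known as the collagen receptor chain of chondrocytes and other skeletal connective tissue cells, was the member that rose. It lies on chromosome 3 (GRCm39, 96552900 to 96571835, plus strand) and overlaps Gm42957 on the same strand, so its counts are uncertain where the exons coincide. The established WT mice held 137, 77.2, 142, 121, 99.4 and 59.9 CPM and the Fosl-2(Tg) mice 217, 205, 216, 164, 208, 160.3 and 125 CPM. All but Fosl-2(Tg) mouse 7 were above every WT mouse. The log2 fold change was 0.81 (SE 0.20, FDR 0.0340). Early levels ran from 48.0 to 149.8 CPM in WT and from 55.6 to 108 CPM in Fosl-2(Tg) mice and overlapped fully (log2 fold change -0.22, SE 0.23, FDR 0.916), and the interaction was 1.01 (SE 0.32, FDR 0.0509). The 3 lowest WT values were those of mice 6, 2 and 5, whose summed muscle markers were 14140, 745 and 21720 CPM, while Fosl-2(Tg) mouse 5, with 208 CPM of Itga10, had 7065 CPM of muscle markers. With the muscle markers as a covariate the log2 fold change was 0.77 and Itga10 stayed called. Without the 3 established libraries above 5000 CPM of muscle markers (WT 5 and 6 and Fosl-2(Tg) 5) the log2 fold change was 0.60 and the call was lost (FDR 0.109); with females alone it was 0.755 (FDR 0.0842). Leaving out Fosl-2(Tg) mouse 1, 2 or 3 or WT mouse 2, 4, 5 or 6 also took the FDR above 0.05, up to 0.0722.

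Itga1 and Itga11 were not called. Itga1, the alpha chain with a preference for basement membrane collagen, lies 20995 bases from Itga2 on chromosome 13 and on the same strand. It overlaps Pelo and Gm49395 on that strand, so its counts are uncertain there. Its level was 99.5 to 140.6 CPM (median 121) in established WT and 108 to 161 CPM (median 138) in Fosl-2(Tg) mice, with a log2 fold change of 0.17 (SE 0.11, FDR 0.322). In the early cohort the range was 122 to 143 CPM (median 130.5) in WT and 119 to 164 CPM (median 133) in Fosl-2(Tg) mice, a log2 fold change of 0.10 (SE 0.08, FDR 0.8845). Of these neighbouring genes, then, Itga2 was called at the established stage and Itga1 was not. Both overlap Mocs2 on the opposite strand, where their counts are uncertain since the strand setting is not given. Itga11, the collagen I receptor chain of fibroblasts, spread widely in each group: 30.5 to 104 CPM (median 74.0) in established WT and 21.4 to 92.8 CPM (median 63.1) in Fosl-2(Tg) mice, with a log2 fold change of -0.32 (SE 0.32, FDR 0.543). Early WT mice fell into a pair of ranges, 83.5 to 98.1 CPM in mice 1 to 3 and 39.1 to 54.4 CPM in mice 4 to 7, while the early Fosl-2(Tg) mice ran from 37.6 to 72.4 CPM (log2 fold change -0.22, SE 0.21, FDR 0.910). The same WT mice 1 to 3 were also higher in Itga10, at 102 to 149.8 CPM against 48.0 to 73.3 CPM; the labels give no batch that separates them, and their muscle markers summed to 102 to 1335 CPM against 356 to 10860 CPM in mice 4 to 7.

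**Figure D3:**
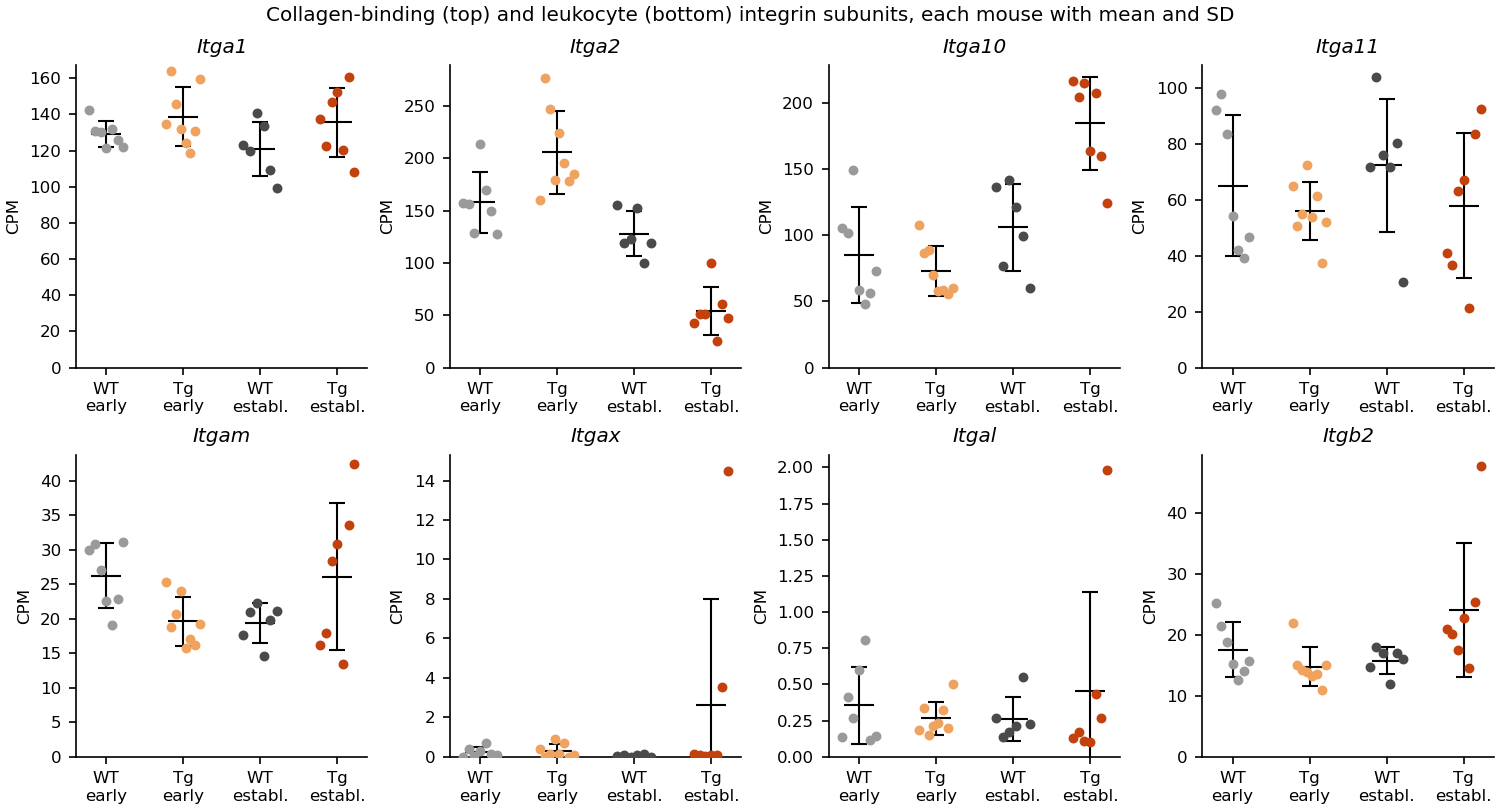
CPM of the 4 collagen-binding (top) and 4 leukocyte (bottom) subunits, one point per mouse in each of the 4 groups, with mean and SD (bars end at 0 where the SD exceeds the mean). Among established mice Itga2 runs from 25.1 to 99.7 CPM in Fosl-2(Tg) against 99.7 to 155 CPM in WT, Itga10 is the higher in Fosl-2(Tg), and Fosl-2(Tg) mouse 7 has the highest value of its group in Itgam, Itgax, Itgal and Itgb2.

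In the established cohort the summed level of the 4 collagen-binding alpha chains overlapped between genotypes while the shares of Itga2 and Itga10 did not. The sum was 309 to 487 CPM (median 449.5) in established WT and 373 to 484 CPM (median 438) in Fosl-2(Tg) mice. Per kilobase, Itga2 made up 27.1 to 44.0% of the 4 chains in established WT and 6.68 to 22% in Fosl-2(Tg) mice, and Itga10 27.5 to 43.1% against 47.3 to 76.0%. Each share contains the other chain in its total, so that a fall of one chain raises the share of the other. In CPM Itga2 and Itga10 each overlapped between the genotypes, and the shares were not tested. The early shares overlapped, at 27.1 to 53.7% in WT and 37.4 to 55.0% in Fosl-2(Tg) mice for Itga2 and at 20.1 to 43.3% and 19.5 to 34.6% for Itga10. The ratio of Itga10 to Itga2, a measure chosen after the values had been seen and therefore not tested, was 0.693 to 1.59 (median 1.16) in established WT and 2.26 to 11.4 (median 5.51) in Fosl-2(Tg) mice, with no overlap. In the early cohort it was 0.379 to 1.6 (median 0.788) in WT and 0.354 to 0.926 (median 0.438) in Fosl-2(Tg) mice.

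To show the sequence around these starts, the 250 bases before the start were read from RefSeq windows (build GRCm38.p6) for the 29 of 40 members that had at least 1 (34 windows in all) and searched on both strands for the AP-1 site TGANTCA, bound by Fos and Jun family dimers such as those of the transgene's product, and for 4 further motifs: the GC box GGGCGG, the TEAD site GGAATG, the PU.1 site GAGGAA and the CArG box. The windows of the 2 alpha chains that changed in opposite directions are shown with every match in capitals; neither held the AP-1 letters. Itga2 lies at chr13:114932101-114932350 on the minus strand and had no match, and Itga10 lies at chr3:96645334-96645583 on the plus strand and had a TEAD site, which reads CATTCC on this strand, starting 75 bases before the start.
Itga2: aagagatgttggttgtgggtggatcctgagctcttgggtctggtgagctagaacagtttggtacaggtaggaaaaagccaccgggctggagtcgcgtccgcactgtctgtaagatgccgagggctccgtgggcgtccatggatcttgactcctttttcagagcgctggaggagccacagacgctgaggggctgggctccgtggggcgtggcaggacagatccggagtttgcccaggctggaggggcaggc
Itga10: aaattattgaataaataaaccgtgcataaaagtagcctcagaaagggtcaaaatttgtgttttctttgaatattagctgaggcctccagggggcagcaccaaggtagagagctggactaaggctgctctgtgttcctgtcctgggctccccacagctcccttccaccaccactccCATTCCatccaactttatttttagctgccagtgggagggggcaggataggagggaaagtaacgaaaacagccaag

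AP-1 letters stood before the start of 3 of the 29 members, beside 7.82% of the 27025 genes with a window, and of these 3 genes Actn4 and Zyx were not called and Itgax was not tested. They are printed with 10 bases on either side and the site in capitals, since the transgene encodes an AP-1 factor: Actn4 at chr7:28962485-28962511 (minus strand, 169 bases before the start), Itgax at chr7:128129484-128129510 (plus strand, 56 bases) and Zyx at chr6:42349697-42349723 (plus strand, 121 bases).
Actn4: ccccgccttaTGAATCAttcatgactt
Itgax: ccacctcctcTGAGTCAcgctgacaac
Zyx: gtgcggacagTGAGTCAgttctccagc

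The GC box was found for 17 of the 29 members (58.6%), among them both windows of Bcar1, against 35.4% of all genes. TEAD letters were found in 4 members, Actn4, Itga10, Itgb1 and Vcl (14.4% of all genes), PU.1 letters in 8 (25.9% of all genes) and the CArG box in Fermt2 and Vcl (1.62% of all genes). A match describes letters and not binding, and windows without a match say nothing of a factor.

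Leukocyte subunits had low levels and edgeR called neither of the 2 that could be tested, Itgam and Itgb2. Itgam (CD11b), the alpha chain of the macrophage and neutrophil integrin, was present at 17.6, 21.0, 22.2, 14.6, 19.8 and 21.1 CPM in the established WT mice and at 16.2, 17.9, 28.4, 30.9, 13.4, 33.6 and 42.3 CPM in the Fosl-2(Tg) mice. Of the Fosl-2(Tg) mice 4 were above every WT mouse and 1 below, and the log2 fold change was 0.44 (SE 0.24, FDR 0.252). Itgb2 (CD18), the beta chain of all leukocyte-restricted integrins of this family, was at 14.8, 18.03, 17.1, 11.9, 17.0 and 16.0 CPM in WT and at 20.9, 20.2, 17.5, 22.9, 14.6, 25.4 and 47.8 CPM in Fosl-2(Tg) mice, where 5 of 7 exceeded every WT mouse (log2 fold change 0.62, SE 0.23, FDR 0.109). Early mice gave the opposite sign without a call: Itgam was 19.1 to 31.1 CPM (median 27.1) in WT and 15.7 to 25.3 CPM (median 19.0) in Fosl-2(Tg) mice (log2 fold change -0.42, SE 0.13, FDR 0.624), and Itgb2 12.5 to 25.3 CPM (median 15.7) against 10.94 to 22.02 CPM (median 14.1; -0.25, SE 0.16, FDR 0.853). Early WT mice 1 to 3 had 18.9 to 25.3 CPM of Itgb2 and early WT mice 4 to 7 had 12.5 to 15.7 CPM. For Itgam these ranges were 27.1 to 30.8 and 19.1 to 31.1 CPM. The interaction was 0.85 for Itgam (SE 0.27, FDR 0.0513) and 0.87 for Itgb2 (SE 0.28, FDR 0.0564), just outside the threshold. Itgam overlaps Gm49368 on the same strand, so that its counts are uncertain there.

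Itgax (CD11c), the alpha chain that marks dendritic cells and some macrophages, and Itgal (CD11a), the alpha chain common to lymphocytes and other leukocytes, were close to absent. Itgax lies 10914 bases from Itgam on chromosome 7. Its count was 0 to 13 reads over the 15 early libraries, 0 to 5 reads in the established WT and 1 to 5 reads in 5 of 7 established Fosl-2(Tg) libraries. The other two held 52 reads (3.52 CPM, Fosl-2(Tg) mouse 6) and 380 reads (14.5 CPM, mouse 7). A count of 0 occurred in 2 early Fosl-2(Tg), 1 early WT and 2 established WT libraries and allows up to 3 counts, which is 0.130 to 0.334 CPM at these depths. Itgal was at 0.101 to 0.809 CPM in all libraries but that of established Fosl-2(Tg) mouse 7, which held 52 reads (1.98 CPM). Fosl-2(Tg) mouse 7 thus had the highest value of its group in all 4 leukocyte subunits, and when it was left out the established log2 fold change of Itgam was 0.28 (FDR 0.416) and that of Itgb2 0.36 (FDR 0.109).

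Markers of blood cell types were read beside these genes. The 12 macrophage markers summed to 1008 to 1672 CPM in established Fosl-2(Tg) and 814 to 1322 CPM in WT mice, with the highest value of all 28 libraries in Fosl-2(Tg) mouse 7. Of the 12 markers 11 had a log2 fold change above 0, where 49.3% of all genes were below 0. Only 1, Cd163, was called (6.51% of all genes). In early mice the sums were 956 to 1318 CPM in Fosl-2(Tg) and 1102 to 1613 CPM in WT mice, with 11 of 12 markers below 0 (52.7% of all genes). EdgeR called 0 of these 12 (0.0396% of all genes), and 7 had an unadjusted p under 0.05 (6.06% of all genes). The 8 neutrophil markers summed to at most 6.63 CPM and the 8 lymphocyte markers to at most 1.28 CPM in any library; Ly6g was at 0 in 27, S100a9 and Elane in 26 and Cd3g in 23 of the 28 libraries. Established Fosl-2(Tg) mouse 6, with 62.7 CPM of leukocyte subunits, had the 6.63 CPM of neutrophil markers, and every other library had at most 1.54 CPM. Fosl-2(Tg) mouse 7 had 0.951 CPM of neutrophil and 1.07 CPM of lymphocyte markers. The interaction was above 0 for all 12 macrophage markers and called for Adgre1, Mrc1 and Cd163 (0.97, 1.00 and 1.44), where 7.43% of all genes were called. Erythroid markers (6 genes) summed to 10.3 to 127 CPM in established Fosl-2(Tg) and 8.94 to 20.1 CPM in WT mice, and 7.795 to 11.35 CPM and 8.50 to 33.2 CPM in early ones. Of the 5 tested 4, all globin genes, were called in the interaction (7.43% of all genes). Platelet markers (7 genes) summed to 40.6 to 109 CPM over all libraries, but much of this was Pf4. In early WT mice Pf4 averaged 52.9 CPM of a mean sum of 74.4 CPM. Gp1bb averaged 10.9 CPM, Itga2b 5.45 CPM and Gp1ba 2.81 CPM, while Ppbp, Gp9 and Treml1 averaged at most 1.12 CPM. EdgeR called 0 platelet markers in any comparison, and 2 of 6 had an unadjusted p under 0.05 in the interaction (25.3% of all genes). The part of these cells' RNA in the leukocyte subunits and Fermt3 was not tested.

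Set against each other, the 2 groups of subunits gave a summed level of 309 to 577 CPM for the collagen-binding chains and 26.8 to 107 CPM for the leukocyte subunits over all mice. The leukocyte sum was 26.8 to 39.5 CPM (median 37.4) in established WT and 28.5 to 107 CPM (median 46.0) in established Fosl-2(Tg) mice, and 33.2 to 55.3 CPM (median 46.3) in early WT and 27.3 to 47.8 CPM (median 34.5) in early Fosl-2(Tg) mice. On the log2 scale the ratio of collagen-binding to leukocyte sum was 3.59 ± 0.40 (SD, n = 6) in established WT and 3.13 ± 0.64 (SD, n = 7) in Fosl-2(Tg) mice, a difference of -0.45. In the early cohort it was 3.31 ± 0.21 (SD, n = 7) in WT and 3.77 ± 0.26 (SD, n = 8) in Fosl-2(Tg) mice, a difference of 0.46. These are descriptions with no test, since the contrast was chosen with results known. The lowest ratio, 1.81, was that of established Fosl-2(Tg) mouse 7, without which the established difference was -0.23, and the established medians were 3.37 in Fosl-2(Tg) and 3.51 in WT mice.

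**Figure D4:**
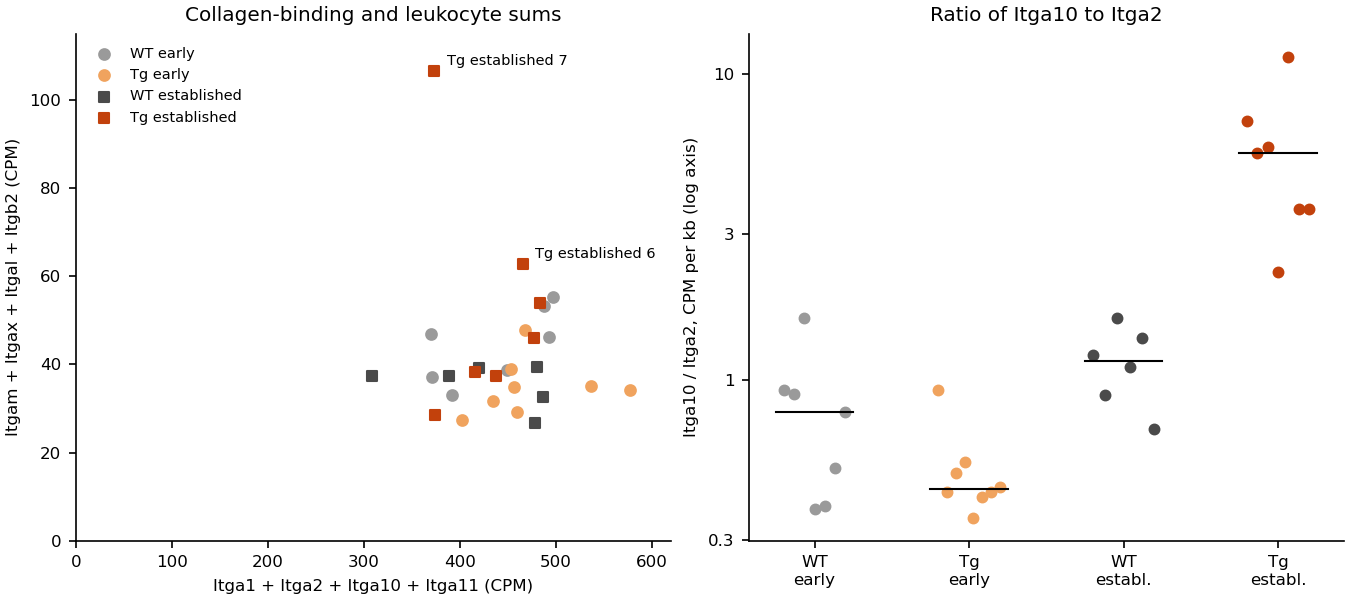
Left, summed CPM of the 4 collagen-binding alpha chains against that of the 4 leukocyte subunits, one point per mouse, circles early and squares established; right, ratio of Itga10 to Itga2 in CPM per kilobase (log axis), one point per mouse with the group median as a line. Established Fosl-2(Tg) mice 7 and 6 have the highest leukocyte sums (107 and 62.7 CPM), and the ratio in established Fosl-2(Tg) mice (2.26 to 11.4) lies above that of every other mouse (at most 1.6).

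The laminin-binding, RGD-binding and remaining alpha chains held no gene called by edgeR in either cohort. Itga7, the laminin receptor chain of skeletal muscle, had a log2 fold change of -0.88 (FDR 0.110) in the established cohort and 0.28 in the early cohort. Its highest levels, 57.7 and 46.6 CPM, were those of WT mice 5 and 6, the mice with the most muscle markers, and the other established mice ran from 11.2 to 27.0 CPM; the part of muscle RNA in this difference was not tested. Itga6, which pairs with beta 4 in hemidesmosomes, and Itga3 had established log2 fold changes of -0.05 and -0.01. Itga5, the fibronectin receptor chain, was 70.2 to 103 CPM in established WT and 78.5 to 148 CPM in Fosl-2(Tg) mice, of which 5 of 7 exceeded every WT mouse, but did not pass (log2 fold change 0.42, SE 0.15, FDR 0.0959); its early value was -0.01. Itgav, the chain that serves the vitronectin receptors and activates latent TGF-beta, was at -0.15 and -0.01 in the established and early cohorts, and Itga8 at 0.18 and 0.14. Itga4 and Itga9, related chains that bind fibronectin splice forms, VCAM-1 and tenascin-C, stood between -0.19 and -0.04 in both cohorts.

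Among the other beta chains edgeR called none, though Itgb1, Itgb3 and Itgb7 had an unadjusted p under 0.05 at the established stage. Itgb1 was 379 to 557 CPM (median 406) in established WT and 243 to 423 CPM (median 380.1) in Fosl-2(Tg) mice, with a log2 fold change of -0.31 (SE 0.14, FDR 0.175), and 3 of 7 Fosl-2(Tg) values were below the WT range. Its early value was 0.07 (FDR 0.935). Itgb3, the beta chain of osteoclasts and platelets, had log2 fold changes of -0.53 (early, FDR 0.8175) and 0.42 (established, FDR 0.157), an interaction of 0.95 that did not pass (FDR 0.0651). Itgb7, a chain of gut-homing lymphocytes and mast cells, was low at 4.73 to 6.93 CPM in established WT and 3.99 to 14.3 CPM in Fosl-2(Tg) mice, of which 6 of 7 exceeded every WT mouse (log2 fold change 0.67, SE 0.23, FDR 0.0872). Itgb4, Itgb5 and Itgb8 had established log2 fold changes of -0.37, -0.17 and 0.20, and Itgbl1 of -0.28 (FDR 0.324).

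In the adhesion plaque 1 of 17 genes was called at the established stage (5.88%, beside 6.51% of all genes). Bcar1 encodes p130Cas, a scaffold whose phosphorylation increases when it is stretched, and lies on chromosome 8 (GRCm39, 112434491 to 112470521, minus strand). Its level was 41.7, 45.8, 41.0, 47.5, 43.2 and 34.3 CPM in the established WT mice and 23.8, 28.2, 32.0, 30.5, 14.4, 30.7 and 33.8 CPM in the Fosl-2(Tg) mice. The groups did not overlap, all 7 Fosl-2(Tg) values being the lower; no other of the 38 tested members separated the established groups in this way, as did 3.81% of all genes. The log2 fold change was -0.61 (SE 0.16, FDR 0.0379). Early levels were 28.6 to 58.1 CPM (median 42.5) in WT and 28.9 to 57.1 CPM (median 50.7) in Fosl-2(Tg) mice and covered the same range (0.16, SE 0.17, FDR 0.916), and the interaction was -0.77 (SE 0.24, FDR 0.0471). Leaving out WT mouse 1, 2, 3, 4 or 5 or Fosl-2(Tg) mouse 1 or 2 took the established FDR above 0.05, up to 0.0773, and the interaction passed in 9 of 28 such fits, those without early WT mouse 4 or 5, early Fosl-2(Tg) mouse 7 or 8, established Fosl-2(Tg) mouse 3, 4, 6 or 7 or established WT mouse 6.

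Neither of the 2 other plaque genes of this signalling group was called by edgeR. Ptk2, which encodes focal adhesion kinase, had one of the narrowest spreads, 64.8 to 77.9 CPM in established WT and 65.0 to 71.0 CPM in Fosl-2(Tg) mice (log2 fold change -0.08, SE 0.06, FDR 0.410), and Pxn, the paxillin gene, was at -0.00246 (SE 0.12, FDR 0.992). Their early values were 0.03 and -0.02.

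Of the 4 integrin activators, Fermt3 was the one called in the interaction. Fermt3 encodes kindlin-3, the kindlin of blood cells, and lies on chromosome 19 (GRCm39, 6974559 to 6996837, minus strand). It overlaps Trpt1 on the opposite strand, where its counts are uncertain since the strand setting is not given. The early levels were 8.92 to 16.2 CPM (median 11.01) in WT and 7.33 to 12.5 CPM (median 8.85) in Fosl-2(Tg) mice, which overlapped (log2 fold change -0.37, SE 0.17, FDR 0.8175). Established levels were 9.48, 11.9, 9.37, 8.96, 10.1 and 9.82 CPM in WT and 10.7, 13.1, 11.5, 12.1, 10.1, 13.5 and 19.7 CPM in Fosl-2(Tg) mice, of which 4 of 7 exceeded every WT mouse (0.39, SE 0.14, FDR 0.110). Neither cohort passed alone, but the difference between them did, at 0.75 (SE 0.23, FDR 0.0436). The highest established value belonged to Fosl-2(Tg) mouse 7, which also led in the leukocyte subunits and macrophage markers, and in early WT mice 1 to 3 (14.9 to 16.2 CPM) were above mice 4 to 7 (8.92 to 11.01 CPM). The interaction passed in 13 of 28 fits that each left out 1 library; it did not without early WT mouse 1, 2 or 3, any early Fosl-2(Tg) mouse from 4 to 8, established Fosl-2(Tg) mouse 2 or 7 or established WT mouse 1, 3, 4, 5 or 6, where the FDR reached at most 0.0795. Fermt2, the kindlin of fibroblasts and other adherent cells, had log2 fold changes of 0.06 and -0.10 in the early and established cohorts, Tln1 of -0.11 and 0.04, and Tln2, the second talin, of 0.02 and -0.30.

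**Figure D5:**
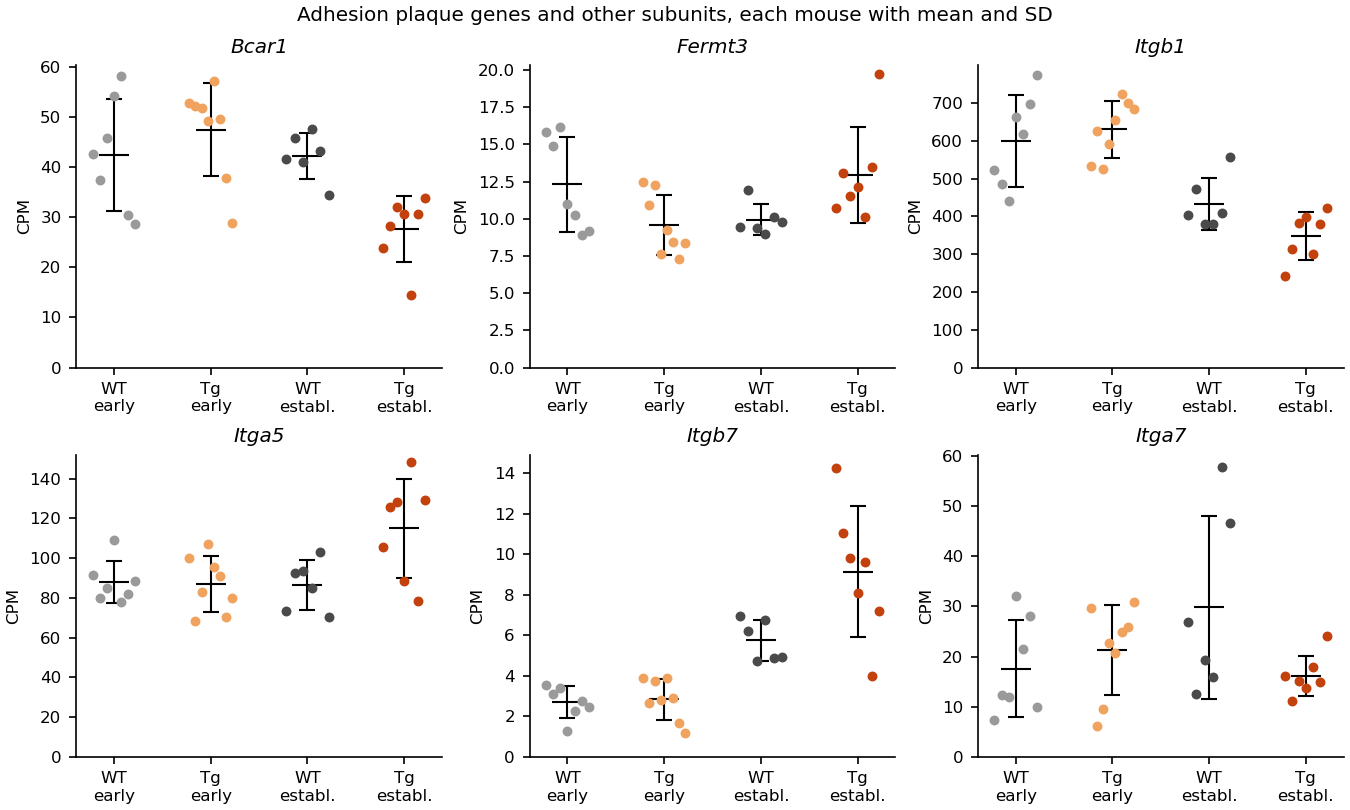
CPM of Bcar1, Fermt3, Itgb1, Itga5, Itgb7 and Itga7, one point per mouse in each of the 4 groups, with mean and SD. Established Fosl-2(Tg) mice lie below all WT mice in Bcar1 (14.4 to 33.8 against 34.3 to 47.5 CPM), while the groups overlap in the other 5 genes.

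The ILK, PINCH and parvin genes and the actin linkers held no call in either cohort. Ilk and Parva had established log2 fold changes of -0.22 and -0.23 (FDR 0.232 and 0.241), with 4 of 7 Fosl-2(Tg) values below the WT range in each, and Lims1 (PINCH-1) of -0.04. Lims2 (PINCH-2), at 19.55 to 28.55 CPM in established WT and 18.5 to 43.4 CPM in Fosl-2(Tg) mice, had 0.39 (FDR 0.182) in the established and -0.44 (FDR 0.847) in the early cohort. Actn1, a non-muscle alpha-actinin, was 135.5 to 173 CPM in established WT and 164 to 269 CPM in Fosl-2(Tg) mice, 4 of which exceeded every WT mouse (log2 fold change 0.28, SE 0.12, FDR 0.160). Vcl, Zyx, Actn4, Tns1 and Tns3 lay between -0.27 and 0.11 in the established and between -0.21 and -0.01 in the early cohort. The summed level of the 17 plaque genes was 2873 to 3768 CPM in established Fosl-2(Tg) and 3204 to 3620 CPM in WT mice.

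Further genes around the adhesion were read from a list of 91: 4 other integrin subunits, 54 adhesome partners, 28 integrin ligands and 5 other collagen receptors, of which 84 (early) and 85 (established) were tested. No early gene was called by edgeR, and 5 of 84 had an unadjusted p under 0.05 (6.06% of all genes). In the established cohort 8 of 85 were called (9.41%, beside 6.51% of all genes). Srcin1, an inhibitor of Src kinase that binds p130Cas, had the largest fall, with a log2 fold change of -2.63 (SE 0.32, FDR 0.00465). Its level was 17.3 to 35.6 CPM (median 23.7) in WT and 1.08 to 7.25 CPM (median 3.20) in Fosl-2(Tg) mice. The groups did not overlap, as in 3.81% of all genes. The actin polymerase genes Enah and Evl, whose products are recruited to the plaque, fell by 0.66 and 0.42 on the log2 scale (FDR 0.0292 and 0.0366).

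Ligands gave the remaining calls, 5 of 26 tested (19.2%, beside 6.51% of all genes). Col1a1 and Col1a2, the chains of the main ligand of the collagen-binding integrins, fell by 2.50 and 2.23 on the log2 scale. Lama5, a laminin alpha chain, fell by 0.83. In all 3 genes the highest Fosl-2(Tg) value was under the lowest WT value. Such separation, in either direction, was found for 3.81% of all genes. Npnt, the alpha 8 beta 1 ligand nephronectin, fell by 0.92, and 6 of 7 Fosl-2(Tg) mice were below the WT range. Both collagen genes are also among the tendon markers. Thbs1, which encodes thrombospondin-1, rose: it was 745.5 to 1370 CPM (median 1084) in established WT and 1248 to 3066 CPM (median 2300) in Fosl-2(Tg) mice (log2 fold change 1.11, SE 0.20, FDR 0.0128). Of the 26 tested ligands 22 had a log2 fold change below 0, as did 49.3% of all genes, and of the 52 adhesome partners 25. The interaction was called for 9 of 87 genes (10.3%, beside 7.43% of all genes), higher for Lpxn (1.29), the leukocyte paxillin relative leupaxin, and Thbs1 (1.49) and lower for Srcin1 (-2.67), Enah (-0.95), Evl (-0.62), Col1a1 (-3.04), Col1a2 (-2.69), Tnc (-1.63) and Npnt (-1.29). Of the 4 other collagen receptors and 3 other subunits tested in the established cohort edgeR called 0, while 4 and 2 had an unadjusted p under 0.05 (26.6% of all genes).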

How the data were processed

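The authors depleted ribosomal RNA from the tail tendon RNA, ran STAR for alignment against GRCm39 and featureCounts for the counts of each gene. The deposited files hold these raw counts for 25719 genes in each of 28 libraries. The strand setting and the treatment of multimapping reads are not given in the sources used here, so that reads of overlapping genes cannot be told apart.

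Genes were filtered with filterByExpr (minimum count 10, minimum total 15), scaled by TMM and tested with the quasi-likelihood test of edgeR 4.0.16 in R 4.3.3, Fosl-2(Tg) against WT within each cohort and by an interaction term over all 28 libraries. The p-values were adjusted over all genes tested (FDR of at most 0.05). DESeq2 1.42.0 served as an alternative. The scripts were tested on simulated data. CPM per mouse used TMM factors over all libraries, and levels per kilobase the union of exons. Gene positions came from GENCODE (GRCm39), and promoter windows from RefSeq (GRCm38.p6).

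All 40 members are placed by role; values per mouse are given for members past the threshold in any test and for the 8 collagen-binding and leukocyte subunits, and of the surrounding lists genes past the threshold are named, at most 12 per comparison. Members and lists were chosen with earlier results of these data known. Mice are the replicates; each library is 1 mouse. Same-numbered early mice deviated together (7 of 7 correlations of deviations above 0.1, from 0.129 to 0.363), whereas established ones did not in every pair (4 of 6, from -0.223 to 0.688); the labels give the numbers but no shared litter or day.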

Additional observations from a re-analysis of the deposited data

Results flagged for a closer look

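Of 40 groups of values (10 genes in the 4 groups of mice) 6 held a mouse far from its group by Dixon's criterion. The criterion's chance rate of about 5% of groups holds for independent, normally distributed values. These values were untransformed CPM of genes measured in the same mice. For that reason the 6 flagged groups cannot be set against that rate. Of these 4 concerned established Fosl-2(Tg) mouse 7: Itgb2 at 47.84 CPM (next value 25.38), Itgax at 14.46 CPM (next 3.52), Itgal at 1.979 CPM (next 0.433) and Fermt3 at 19.71 CPM (next 13.47). This mouse also had the highest sum of macrophage markers of the 28 libraries, 1672 CPM. The remaining 2 were early Fosl-2(Tg) mouse 1 in Itgb2, at 22.02 CPM (next 15.13), and established WT mouse 5 in Itgal, at 0.5535 CPM (next 0.2709).

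The genotype effect differed between the stages by the interaction term for Itga2 (-1.63, FDR 0.00198), Bcar1 (-0.77, FDR 0.0471) and Fermt3 (0.75, FDR 0.0436). Sex changed with stage (15 males in the early cohort, 11 females among 13 established mice), so that stage and sex cannot be told apart in these values.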

How the results depend on the processing

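No member was called in the early cohort under any of the alternatives run. At the established stage DESeq2 called 5 members (Itga7 and Itgb7 in addition), and leaving out each mouse in turn gave 1 to 5. The established count was 2 with females only and 2 without the muscle-rich libraries, an alternative chosen after seeing the data, and Itga10 was lost in both. In the interaction DESeq2 called 7 members, no filter on low counts 1, a mean of at least 1 CPM 5, and leaving out each mouse in turn 1 to 7. With the replicate number as a block the interaction gave 5 and the established cohort the same 3 genes, and the early cohort 0. Itga2 was called in every one of these established and interaction fits. Without the 2 established males Bcar1 and Fermt3 were not called in the interaction, which gave Itga2, Itgam and Itgb2. Over the 8 alternatives of the interaction Bcar1 passed in 5 (FDR up to 0.0805) and Fermt3 in 4 (FDR up to 0.0799).

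Signs turned only for values that passed in neither setting. With muscle markers as a covariate the early values of Itga10 and Itga11 were 0.0460 and 0.0415 and the interaction of Itga1 was -0.0470; without the muscle-rich libraries the last was -0.00588. The interaction of Itga11 was 0.0571 without the 2 established males and ran from -0.264 to 0.0287 when each mouse was left out. The early log2 ratio of collagen-binding to leukocyte subunits differed by 0.21 instead of 0.46 when taken as a mean of log2 values; leaving out each mouse in turn, also chosen after seeing the data, gave 0.41 to 0.53, and -0.56 to -0.23 at the established stage. The cause of these changes was not tested. Counts of Itgax and Itgal were too low for a test.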
